A study of Homo sapiens with 17 samples.

Results

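The genes described here, 10 in number, act in programmed cell death: 3 survival genes of the BCL2 family (BCL2, BCL2L1 and MCL1), 3 BH3-only genes (BCL2L11, BBC3 and PMAIP1), the pore former BAX, the death receptors TNFRSF10A and TNFRSF10B, and MDM2, the negative regulator of p53. They were chosen by name, with earlier results of these data known, and all 10 were found among the 60662 genes counted. The counts come from 17 RNA-seq libraries of Ishikawa cells, an established line derived from an endometrial adenocarcinoma and used as a model of the endometrial epithelium, with every treatment lasting 24 h.

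The libraries fell into 6 groups. Control cultures (n = 3) received medium alone, the Nap vehicle (n = 2) a vehicle that the labels name only as Nap, the EtOH vehicle (n = 3) a vehicle whose title names Nap and EtOH and whose treatment label names 70% EtOH, and the P4 group (n = 3) Nap together with progesterone, abbreviated P4. The P4 label does not name ethanol, and the protocol lists concentrations of 0.1, 1.0 and 1.0 mg/ml without saying which sample had which. The study describes its sequenced progesterone cultures as given the highest concentration it used, but its descriptions of that concentration differ, so no dose is given here. The remaining 6 libraries had columns named PSAT1 (n = 3) and PSAT1_P4 (n = 3), but the titles and treatment labels of each set name the opposite of the 2 treatments, recombinant human PSAT1 alone or with progesterone. These sets were therefore called by their column names, and no treatment was assigned to them. All values describe 1 cell line, and p-values measure only the spread between cultures of that line.

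Apoptosis is started by 2 converging routes. In the intrinsic route, BH3-only proteins neutralise the survival proteins of the BCL2 family or activate BAX and its relative BAK, which permeabilise the mitochondrial outer membrane and release cytochrome c. In the extrinsic route, ligands such as TRAIL engage death receptors at the cell surface, which recruit FADD and caspase-8. PMAIP1, BBC3, BAX, TNFRSF10B and MDM2 are known transcriptional targets of p53, and TNFRSF10B and several BH3-only genes are also known to respond to the transcription factors of the unfolded protein and integrated stress responses.

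Total counts ran from 4999521 to 19704493 per library, the lowest being EtOH vehicle replicate 1 and every other library holding at least 10414752. All 8 epithelial markers were detected, with a summed level of 1390 to 1690 CPM (read counts scaled to library size, after TMM scaling over the 17 libraries) in the control, Nap vehicle, EtOH vehicle and PSAT1 column libraries and 1200 to 1340 CPM in the P4 and PSAT1_P4 column libraries. Of 6 stromal markers, 5 passed 3 counts in some library, mainly the collagens COL1A1, COL1A2 and COL3A1, and their sum was 418 to 645 CPM in the control, Nap vehicle and PSAT1 column libraries, 344 to 360 CPM in the EtOH vehicle libraries and 127 to 180 CPM in the P4 and PSAT1_P4 column libraries. The defining stromal gene DCN never passed 2 counts, the endothelial list stayed at or below 1.75 CPM with CDH5 at 0 counts throughout, and the leukocyte list stayed at or below 2.34 CPM. The part of the collagen and epithelial marker differences in the results on P4 below was not tested. In bulk RNA, fewer cells of a kind and less RNA per cell cannot be told apart.

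The promoter windows of the 3 members that differed most with P4 and had a window in the RefSeq table used here are shown first, since these genes moved together. Each holds the 250 bases before the transcription start and the first 50 bases from it on, in GRCh38.p14, written in the direction of transcription, and capitals mark TGACG on either strand, the half-site of the cAMP response element that proteins of the CREB and ATF family bind. The windows are PMAIP1 at chr18:59899746-59900045 on the plus strand, BCL2 at chr18:63319720-63320019 on the minus strand and BBC3 at chr19:47232618-47232917 on the minus strand.
PMAIP1: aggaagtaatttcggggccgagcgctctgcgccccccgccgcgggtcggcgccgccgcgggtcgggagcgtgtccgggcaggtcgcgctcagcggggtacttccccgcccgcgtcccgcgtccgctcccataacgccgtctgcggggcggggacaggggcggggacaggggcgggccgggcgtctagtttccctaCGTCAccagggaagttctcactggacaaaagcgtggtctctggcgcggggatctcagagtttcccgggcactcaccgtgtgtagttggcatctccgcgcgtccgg
BCL2: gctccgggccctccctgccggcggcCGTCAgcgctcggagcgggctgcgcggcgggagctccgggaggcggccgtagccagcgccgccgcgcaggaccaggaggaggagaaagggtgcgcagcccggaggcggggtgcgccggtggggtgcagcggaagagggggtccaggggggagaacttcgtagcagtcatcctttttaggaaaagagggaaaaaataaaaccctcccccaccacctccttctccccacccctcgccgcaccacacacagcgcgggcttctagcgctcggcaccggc
BBC3: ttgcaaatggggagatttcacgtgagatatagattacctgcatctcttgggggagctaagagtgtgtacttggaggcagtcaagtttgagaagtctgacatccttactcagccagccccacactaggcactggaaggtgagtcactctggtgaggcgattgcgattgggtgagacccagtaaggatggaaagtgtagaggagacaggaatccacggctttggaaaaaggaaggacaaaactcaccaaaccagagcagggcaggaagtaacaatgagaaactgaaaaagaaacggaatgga
PMAIP1 carried the half-site on the opposite strand 55 bases upstream of the start, BCL2 carried it on the opposite strand 225 bases upstream, and the BBC3 window held none. GC content was 71.3% for PMAIP1, 70.7% for BCL2 and 48.0% for BBC3. Of the 10 members, 7 had at least 1 window (11 windows in all), and TGACG was present in 4 of these 11 windows, one each for BCL2, BCL2L1, PMAIP1 and BAX, against 24.5% of 34796 windows in the table. The full element TGACGTCA (1.84% of all windows) and the composite element TGATGNAA bound by C/EBP and ATF proteins (3.63%) had no match on either strand in the 11 windows. The p53 half-site, searched as RRRCWWGYYY (R for A or G, W for A or T, Y for C or T), had none either (6.65% of all windows). Mismatches were not allowed, so p53 elements that depart from these letters would not be found. The GC box GGGCGG was in 8 of the 11 windows (44.9% of all windows) and the TATA box TATAAA in 1 (11.6%). By gene, the GC box was in 5 of the 7 members with a window, as MDM2 had 4 windows, some of them overlapping. TGACG also counts within TGACGTCA. MCL1, TNFRSF10A and TNFRSF10B had no window here.

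P4 was compared with the EtOH vehicle, although ethanol is named in the label of the vehicle only. How far progesterone or the vehicle accounts for differences between these groups was not tested. Of the 10 members 5 rose, TNFRSF10B, BBC3, BCL2, PMAIP1 and MDM2, and none fell. The rises reached 3.48-fold for TNFRSF10B, 3.15-fold for BBC3, 2.59-fold for BCL2 and 2.56-fold for PMAIP1, and 1.19-fold for MDM2. BCL2L1, MCL1, BCL2L11, BAX and TNFRSF10A did not pass the test. In the same edgeR quasi-likelihood fit, 8774 of 16540 genes were called at a Benjamini-Hochberg adjusted p under 0.05 (53%), with 26.6% called higher in P4, so that 5 of 10 members called is close to the share over all genes. A call with a change beyond 1 log2 unit was made for 12.4% of all genes tested and for 4 of the 10 members. The members were chosen with earlier results of these data known, so this difference in share is a description and no independent evidence.

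**Figure D1:**
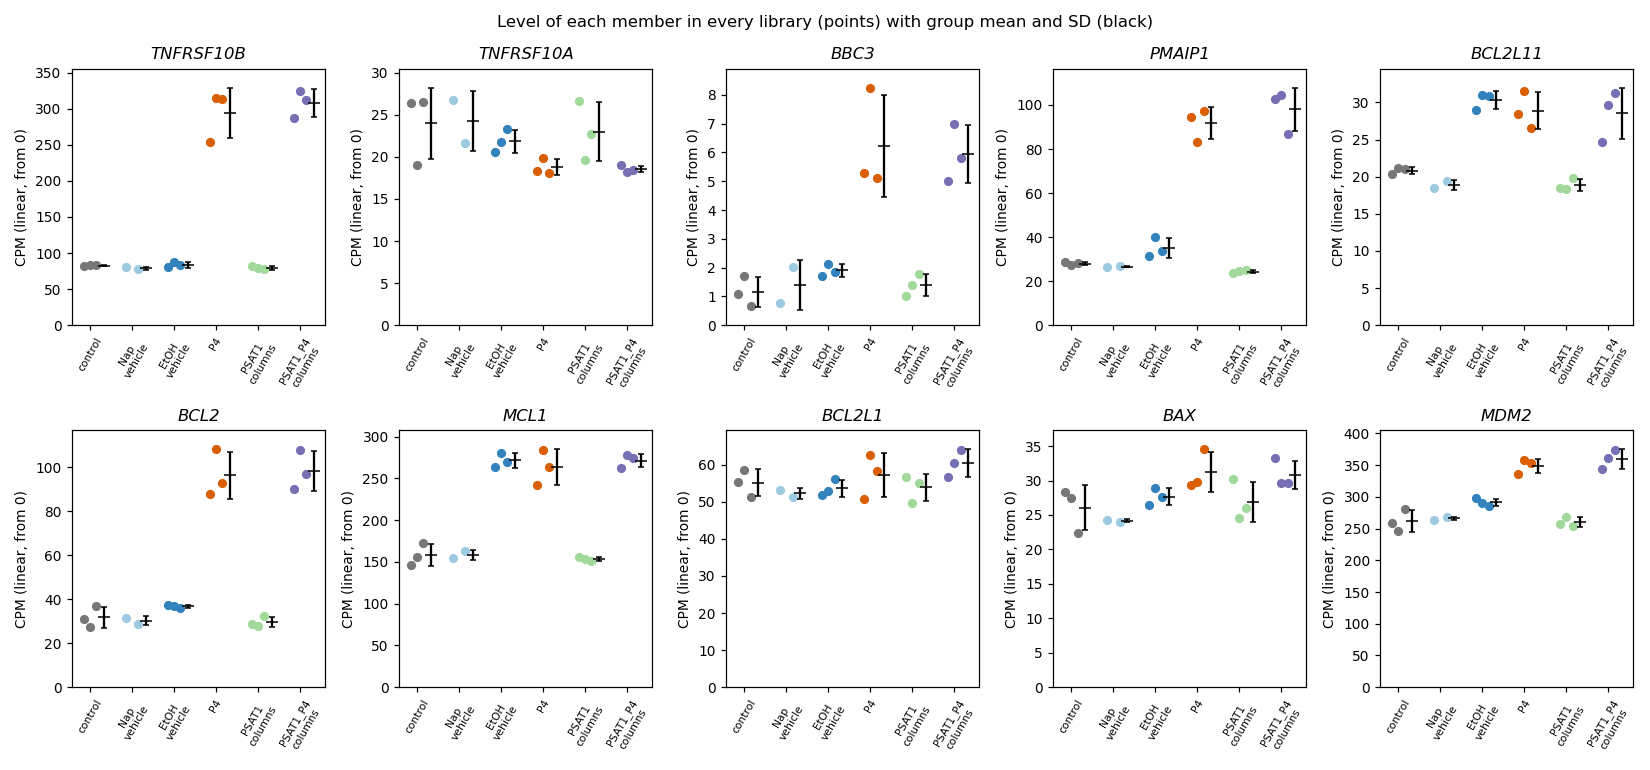
CPM of the 10 members (linear axes from 0) in each of the 17 libraries, as points coloured by group, with the group mean and SD in black. TNFRSF10B, BBC3, PMAIP1 and BCL2 were high in the P4 and PSAT1_P4 column libraries, while MCL1 and BCL2L11 were high in the EtOH vehicle libraries as well.

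The death receptor pair moved apart. TNFRSF10B (chromosome 8, 23020133 to 23069179, minus strand, GRCh38) encodes the TRAIL receptor DR5, and its level was 254, 315 and 314 CPM in the P4 libraries against 80.1, 87.4 and 82.9 CPM in the EtOH vehicle libraries. The lowest P4 library thus lay far above the highest vehicle library, and the log2 fold change was 1.80 with a standard error (SE) of 0.086 (edgeR adjusted p = 1.5e-08), a size exceeded by few genes in either direction (97.0 percentile of absolute change). TNFRSF10A (chromosome 8, 23190452 to 23225126, minus strand), which encodes the other death-inducing TRAIL receptor, DR4, was at 18.4, 19.9 and 18.1 CPM with P4 and at 20.5, 21.8 and 23.3 CPM with the EtOH vehicle. These groups did not overlap, as was so for 60.3% of all genes tested, and the log2 fold change was -0.24 (95% interval -0.46 to -0.03, edgeR adjusted p = 0.0564), which passed the threshold under upper-quartile normalisation (adjusted p = 0.0137), with a stricter count filter (0.0447) and without P4 replicate 2 (0.0471).

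Per kilobase of exon, so that genes of unequal length can be compared, TNFRSF10B stood at 2.19 ± 0.136 times the level of TNFRSF10A in the EtOH vehicle libraries (SD, n = 3) and at 8.97 ± 1.01 times with P4 (n = 3). Exon length here and below is the union of all annotated exons of a gene, not the length of the transcripts expressed. Levels set between genes are therefore approximate. The ratio lay between 1.71 and 2.49 in all 8 control, Nap vehicle and PSAT1 column libraries and between 8.65 and 10.2 in the PSAT1_P4 columns. The receptor balance therefore took 2 levels, with no library in between. TNFRSF10B overlaps RHOBTB2 on the opposite strand, and the strand setting of the counting is not given in the sources used here. RHOBTB2, at a mean of 15.1 CPM over the 17 libraries, was lower with P4 (log2 fold change -0.80, edgeR adjusted p = 5.7e-04), opposite to TNFRSF10B. How far reads were shared between the 2 genes was not tested.

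Among the BH3-only genes, PMAIP1 and BBC3 rose and BCL2L11 did not pass the test. PMAIP1 (chromosome 18, 59899948 to 59904306, plus strand), which encodes NOXA, a protein that binds MCL1 in particular, was at 94.4, 83.4 and 97.5 CPM with P4 and at 31.4, 40.2 and 33.6 CPM with the EtOH vehicle. Its groups were far apart, with a log2 fold change of 1.36 (SE 0.099, edgeR adjusted p = 4.8e-07). BBC3 (chromosome 19, 47220822 to 47232766, minus strand), which encodes PUMA, a protein able to bind all survival members of the family, was the least abundant member at 5.29, 8.25 and 5.12 CPM against 1.73, 2.14 and 1.85 CPM. Its log2 fold change of 1.65 had the widest error among the members (SE 0.25, edgeR adjusted p = 1.4e-04), since it rested on 55 to 96 reads per P4 library and 9 to 29 per vehicle library. BCL2L11 (chromosome 2, 111119378 to 111168447, plus strand), which encodes BIM, was at 28.5, 31.6 and 26.6 CPM with P4 and 28.9, 31.1 and 30.9 CPM with the EtOH vehicle, and these ranges overlapped (log2 fold change -0.09, 95% interval -0.30 to 0.11, edgeR adjusted p = 0.433).

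BCL2 was the survival gene that rose. BCL2 (chromosome 18, 63123346 to 63320128, minus strand) was at 87.6, 108 and 92.9 CPM with P4 against 37.4, 37.0 and 36.0 CPM with the EtOH vehicle, with all P4 libraries above all vehicle libraries (log2 fold change 1.38, SE 0.088, edgeR adjusted p = 1.5e-07). MCL1 (chromosome 1, 150574551 to 150579738, minus strand), a short-lived survival protein, was at 242, 284 and 264 CPM against 264, 281 and 270 CPM, and these ranges overlapped (log2 fold change -0.06, 95% interval -0.21 to 0.09, edgeR adjusted p = 0.504). BCL2L1 (chromosome 20, 31664452 to 31723989, minus strand), which encodes BCL-XL and the shorter, death-promoting BCL-XS, was at 50.8, 62.7 and 58.2 CPM against 51.8, 52.8 and 56.1 CPM (log2 fold change 0.08, 95% interval -0.11 to 0.27, edgeR adjusted p = 0.467). Gene counts do not separate its splice forms.

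On the scale of CPM per kilobase of exon, MCL1 was the most abundant member in the EtOH vehicle libraries, at 62.1 ± 1.99, followed by MDM2 at 21.9 ± 0.432 and by TNFRSF10B at 16.2 ± 0.715, BCL2L1 at 16.2 ± 0.688 and PMAIP1 at 15.7 ± 2.05 (SD, n = 3), which did not differ beyond their spread. BCL2, at 3.13 ± 0.0604, was well below BCL2L1. With P4, BCL2 reached 8.17 ± 0.897 and its ratio to BCL2L1 went from 0.194 ± 0.0114 to 0.474 ± 0.0205. Within the summed level of the 3 survival genes, the share of BCL2 was 3.84% ± 0.154 with the EtOH vehicle and 9.53% ± 0.325 with P4, while that of MCL1 was 76.3% ± 0.802 and 70.3% ± 0.551 and that of BCL2L1 was 19.8% ± 0.808 and 20.1% ± 0.473. In control and with the Nap vehicle the share of MCL1 was lower, at 65.1% ± 2.42 and 66.4% ± 1.56, and that of BCL2L1 higher, at 30.0% ± 2.86 (n = 3) and 28.9% ± 1.2 (n = 2), so that relative to these groups the MCL1 share was higher and the BCL2L1 share lower with P4. The share of BCL2, at 4.84% ± 0.627 and 4.71% ± 0.368, was below that with P4 for each reference, and MCL1 was the largest of the 3 in every library.

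**Figure D2:**
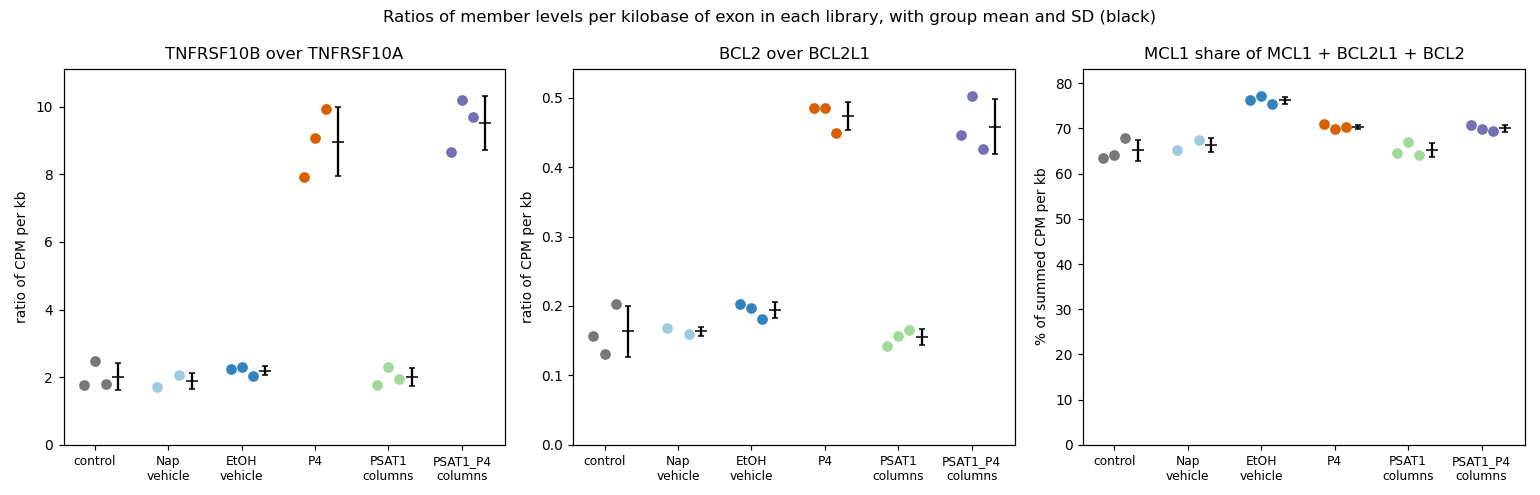
Ratio of TNFRSF10B to TNFRSF10A, ratio of BCL2 to BCL2L1 and share of MCL1 in the 3 survival genes, each from CPM per kilobase of exon, in every library (points) with group mean and SD (black). Both ratios were at a high level in the P4 and PSAT1_P4 column libraries alone, whereas the MCL1 share was highest in the EtOH vehicle libraries, at 75.5% to 77.1%.

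BAX and MDM2 moved little. BAX (chromosome 19, 48954815 to 48961798, plus strand), which forms the mitochondrial pore, was at 29.3, 29.7 and 34.5 CPM with P4 and at 26.5, 28.9 and 27.5 CPM with the EtOH vehicle, and these ranges did not overlap (log2 fold change 0.16, 95% interval -0.05 to 0.36, edgeR adjusted p = 0.187). PMAIP1 per kilobase went from 1.47 ± 0.125 to 3.41 ± 0.269 times the level of BAX. MDM2 (chromosome 12, 68808176 to 68850686, plus strand), the ubiquitin ligase that degrades p53, was at 336, 358 and 353 CPM against 298, 291 and 286 CPM. All P4 libraries lay above all vehicle libraries, with a log2 fold change of 0.25 (SE 0.058, edgeR adjusted p = 0.00335).

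The calls for MCL1 and BCL2L11 depended on the vehicle taken as reference. Both genes stood as high in the EtOH vehicle as in P4, and both were lower in the control and Nap vehicle cultures. MCL1 was at 147, 156 and 172 CPM in the control libraries and at 154 and 163 CPM with the Nap vehicle, against 264 to 281 CPM with the EtOH vehicle, so that the EtOH vehicle libraries lay apart from both other groups. BCL2L11 was at 20.3, 21.2 and 21.0 CPM in the control libraries and 18.4 and 19.4 CPM with the Nap vehicle, against 28.9 to 31.1 CPM with the EtOH vehicle.

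Relative to control, 3 of the 10 members rose with the EtOH vehicle and none fell, where 22.6% of 16673 genes were called and 11.9% were called higher. These were MCL1 (log2 fold change 0.78, SE 0.074, edgeR adjusted p = 1.4e-07), BCL2L11 (0.55, SE 0.092, adjusted p = 2.6e-04) and PMAIP1 (0.35, SE 0.096, adjusted p = 0.013). PMAIP1 lost this call without EtOH vehicle replicate 2 (log2 fold change 0.22, edgeR adjusted p = 0.201), and BCL2 and MDM2 gained one without control replicate 3, as BBC3 did without control replicate 2 (edgeR adjusted p = 0.0186, 0.0335 and 0.0152). TNFRSF10B was at 81.5, 82.9 and 82.9 CPM in the control libraries, the same range as with the EtOH vehicle (log2 fold change 0.02, 95% interval -0.12 to 0.17, edgeR adjusted p = 0.84). Against the Nap vehicle, a comparison added after the data were seen, the EtOH vehicle was higher for 4 members, MCL1 (0.78), BCL2L11 (0.69), PMAIP1 (0.42) and BCL2 (0.28), where 23.8% of 16935 genes were called and 12.7% higher. Without EtOH vehicle replicate 2 the calls were down to 2, as PMAIP1 (edgeR adjusted p = 0.0727) and BCL2 (0.0856) were lost. The BCL2 call was also lost without EtOH vehicle replicate 3 (0.059), without Nap vehicle replicate 2 (0.162), without a count filter (0.053) and in the fit of all 17 libraries (0.114), each an edgeR adjusted p, and with DESeq2 (0.128).

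The long noncoding gene ADAMTSL4-AS1 overlaps MCL1 on the same strand. It was higher with the EtOH vehicle than in control (log2 fold change 2.80, edgeR adjusted p = 2.3e-06), at a mean of 4.91 CPM over the 17 libraries. How far reads of the shared stretch entered the MCL1 count was not tested. BCL2L11 overlaps MIR4435-2HG on the opposite strand, which at a mean of 14.2 CPM was also higher (0.43, adjusted p = 0.0295), and reads of the 2 genes may not be separable if the counting ignored strand.

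Nap alone gave no call. Against control, 0 of 17166 genes were called by edgeR (0%), with 217 at an unadjusted p under 0.05 and 1 called by DESeq2, and none of the 10 members was among the 217. With the Nap vehicle as the reference for P4, 8 members were higher and 1 lower, where 49.7% of 16987 genes were called, 24.8% higher and 24.9% lower. MCL1 was then higher with P4 by 0.70 on the log2 scale (SE 0.091, edgeR adjusted p = 8.5e-05), BCL2L11 by 0.58 (SE 0.122, 0.00218) and BAX by 0.34 (SE 0.115, 0.0277), and TNFRSF10A was lower (-0.39, SE 0.128, 0.0241). TNFRSF10B (1.87), BBC3 (2.08), PMAIP1 (1.76), BCL2 (1.64) and MDM2 (0.36) were higher as before, and BCL2L1 was not called (0.11, 95% interval -0.13 to 0.34, edgeR adjusted p = 0.435). Against control, 8 of the 10 members were called (7 higher, and TNFRSF10A lower), where 54.8% of 16620 genes were. These comparisons share the P4 libraries and are not independent.

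**Figure D3:**
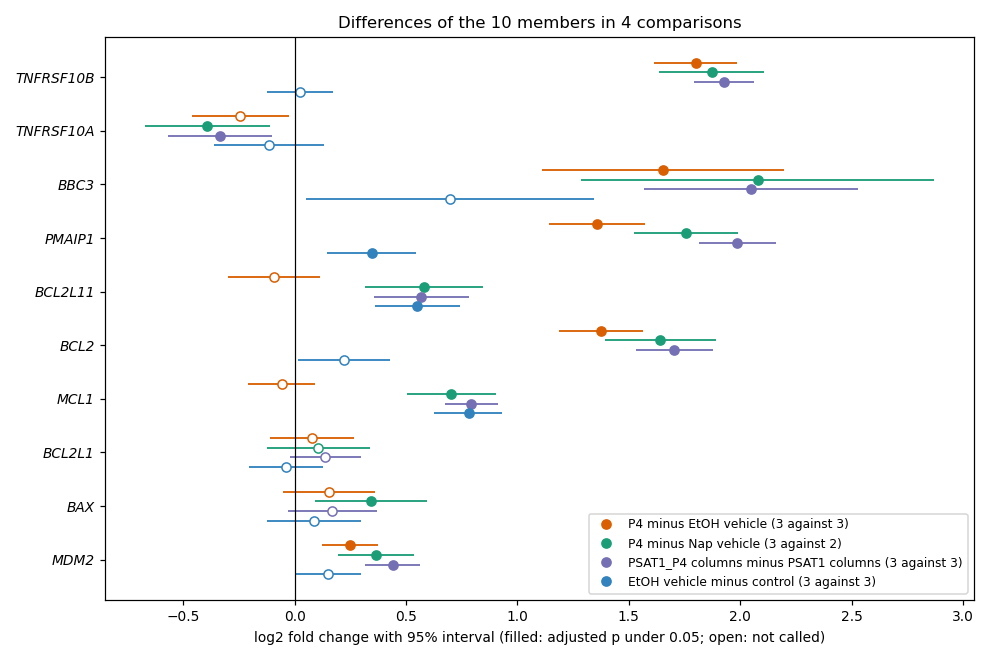
Log2 fold change of each member with its 95% interval in 4 comparisons, with filled points for an edgeR adjusted p under 0.05 and open points for genes not called. MCL1 and BCL2L11 lie near 0 for P4 minus EtOH vehicle but between 0.55 and 0.79 in the other 3 comparisons, whereas TNFRSF10B lies at 1.80 or above in the 3 comparisons other than EtOH vehicle minus control.

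The 2 column sets with contradictory labels differed from each other in 8 of the 10 members. Between the PSAT1_P4 and the PSAT1 columns, 7 members were higher and 1 lower, where 62.3% of 16586 genes were called, 30.7% higher and 31.6% lower. TNFRSF10B was at 287, 325 and 312 CPM in the PSAT1_P4 columns and at 82.5, 79.0 and 77.3 CPM in the PSAT1 columns (log2 fold change 1.93, SE 0.064, edgeR adjusted p = 5.3e-15). PMAIP1 was at 103, 105 and 86.7 CPM against 23.5, 24.4 and 24.9 CPM (1.99, SE 0.082, adjusted p = 1.5e-13), and BCL2 was at 89.96, 108 and 96.9 CPM against 28.7, 27.7 and 32.3 CPM (1.70, SE 0.082, adjusted p = 1.4e-12). For each of these genes the groups lay far apart.

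BBC3 (log2 fold change 2.05, SE 0.229), MCL1 (0.79, SE 0.058), BCL2L11 (0.57, SE 0.102) and MDM2 (0.44, SE 0.059) were also higher in the PSAT1_P4 columns, at edgeR adjusted p from 7.2e-05 to 5.1e-10. TNFRSF10A was lower (-0.34, SE 0.112, adjusted p = 0.0133), a call lost without PSAT1_P4 column replicate 2 (edgeR adjusted p = 0.0556), without PSAT1 column replicate 1 (0.118) and with DESeq2 (0.0574). BCL2L1 (0.14, 95% interval -0.02 to 0.30) and BAX (0.17, -0.03 to 0.37) were not called, although BAX was without PSAT1 column replicate 1 (edgeR adjusted p = 0.0302). This contrast shares no library with P4 minus the Nap vehicle, and in these 2 contrasts all 10 members had the same sign of change, as did 88.9% of 16387 genes. With P4 minus the EtOH vehicle, 8 of 10 members had the same sign, MCL1 and BCL2L11 being the others, against 85.5% of 16158 genes.

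Against the labelled groups, no gene was called by edgeR between the PSAT1_P4 columns and P4 or between the PSAT1 columns and control. Between the PSAT1_P4 columns and P4, 0 of 15621 genes were called by edgeR (0%), with 199 at an unadjusted p under 0.05 and 0 by DESeq2, and the log2 fold change of TNFRSF10B was 0.06 (95% interval -0.14 to 0.25). Between the PSAT1 columns and control, 0 of 17214 genes were called (0%), with 1004 at an unadjusted p under 0.05 and 0 by DESeq2. PMAIP1 was the single member among those 1004, at 23.5 to 24.9 CPM against 27.2 to 28.5 CPM (log2 fold change -0.19, edgeR adjusted p = 0.836). In the cross comparisons, 8 members were called between the PSAT1_P4 columns and control, where 60.2% of 16209 genes were, and 8 between the PSAT1 columns and P4, where 57.1% of 16882 genes were. The call of TNFRSF10A was lost in the first without control replicate 1 (edgeR adjusted p = 0.0624) or 3 (0.0669), and in the second without PSAT1 column replicate 1 (0.187) or 3 (0.0798) or P4 replicate 3 (0.14), while BAX gained a call in the second without P4 replicate 1 (0.049). A p that misses the threshold does not show that groups are alike, and none of this assigns a treatment to either set.

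The difference between the 2 contrasts was itself tested in 1 fit of all 17 libraries, added after the data were seen. PSAT1_P4 minus PSAT1 columns exceeded P4 minus EtOH vehicle for MCL1 by 0.86 on the log2 scale (SE 0.099, edgeR adjusted p = 1.6e-06), for BCL2L11 by 0.68 (SE 0.137, 0.00784) and for PMAIP1 by 0.65 (SE 0.128, 0.00666), where 1.29% of 18232 genes were called. With the Nap vehicle in place of the EtOH vehicle, 0% of these genes were called, and the differences were 0.09 for MCL1, -0.01 for BCL2L11 and 0.23 for PMAIP1 (edgeR adjusted p = 0.986, 1 and 0.986).

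Over the 6 groups, the members followed 3 kinds of order. TNFRSF10B, BCL2, PMAIP1, BBC3 and MDM2 had P4 and the PSAT1_P4 columns highest, overlapping each other and clear of the EtOH vehicle below them. Below that step TNFRSF10B (78.9 to 83.5 CPM by group mean), BCL2 (29.6 to 36.8 CPM) and BBC3 (1.16 to 1.91 CPM) showed 4 groups in which every neighbour in the order overlapped, whereas for PMAIP1 the PSAT1 columns, Nap vehicle, control and EtOH vehicle followed each other without overlap (24.3, 26.7, 28.0 and 35.1 CPM), and for MDM2 the EtOH vehicle stood clear of the groups below it. Groups lay apart for 12.2% of all genes between Nap vehicle and control, 11.2% between PSAT1 columns and control and 38.9% between EtOH vehicle and control. PMAIP1 was called only in the last of these comparisons, and MDM2 in none. MCL1 and BCL2L11 had the EtOH vehicle, P4 and the PSAT1_P4 columns together on top (263 to 272 CPM for MCL1 and 28.6 to 30.3 CPM for BCL2L11). BCL2L1 showed no step, with every neighbour overlapping between 52.2 and 60.4 CPM, and its range over group means, 0.21 log2 units, was the smallest of the 10, against 2.50 for BBC3, 2.01 for PMAIP1 and 1.96 for TNFRSF10B. BAX had P4 and the PSAT1_P4 columns on top and TNFRSF10A had them at the bottom, each clear of the EtOH vehicle by a narrow gap. For BAX, however, both P4 and the PSAT1_P4 columns overlapped the PSAT1 columns. For TNFRSF10A, P4 overlapped the PSAT1 columns and control.

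The genes whose log2(CPM + 1) followed the 3 most variable members most closely over the 17 libraries were taken from 11681 genes with a mean of at least 5 CPM. For TNFRSF10B these were MIA2, HKDC1 and SPIRE1, each with a Pearson r of 0.998. For PMAIP1 they were RPS6KA2 (r = 0.993), SLC38A2 (r = 0.989) and TMEM38B (r = 0.989), and for BBC3 they were MRC2 (r = 0.986), ZSWIM8 (r = 0.979) and SDR39U1 (r = 0.979). Among the members, MCL1 and BCL2L11 had an r of 0.956 with each other, and TNFRSF10B had 0.985 with BCL2, 0.977 with PMAIP1 and 0.694 with MCL1. These values are a description of libraries that share groups and treatments, and are not a test.

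The wider apoptosis genes were read from the same fit of P4 against the EtOH vehicle, in which the median log2 fold change of all genes was -0.01. In that fit 53% of all genes tested were called and 26.6% were called higher. Of 10 other BCL2 family genes 8 were tested, 2 rose and 2 fell, with a median of -0.13. HRK, a BH3-only gene, went from 1 to 8 reads per EtOH vehicle library (0.368 ± 0.203 CPM) to 9.77 ± 2.39 CPM with P4 (edgeR adjusted p = 4.8e-07), and the survival gene BCL2L2 rose by 0.54 on the log2 scale, which was 0.32 and not called against the Nap vehicle (edgeR adjusted p = 0.0535). BOK, a relative of BAX, and BID, which links caspase-8 to the mitochondrion, fell (-0.55 and -0.46), BOK without a call against the Nap vehicle (-0.38, edgeR adjusted p = 0.115), whereas BAK1, the other principal pore former, was at 11.2 ± 0.381 against 13.5 ± 0.673 CPM and was not called (edgeR adjusted p = 0.0538).

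Of 15 other genes of the death receptor pathway, 11 were tested, 3 rose and 4 fell, with a median of -0.12. Over all genes tested, 53% were called and 26.6% were called higher. The death receptor FAS rose by 1.21 (23.2 ± 1.97 to 54.4 ± 11.2 CPM), as did TNFRSF21 (0.67) and the TNF receptor TNFRSF1A (0.44). The initiator caspases CASP8 (-0.54) and CASP10 (-0.58) and the decoy TRAIL receptor TNFRSF10D (-0.41) fell. The ligand genes were barely detected, since TNFSF10, which encodes TRAIL, never passed 16 reads in a library and FASLG never passed 1, and neither was tested in this comparison. Against the Nap vehicle TNFSF10 was tested and was lower with P4 (0.163 against 0.875 CPM, edgeR adjusted p = 0.00607), at these few reads.

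All 12 caspase, apoptosome and inhibitor of apoptosis (IAP) genes read here were tested, and 5 rose and 4 fell, with a median of -0.16. The share called over all genes tested was 53%, with 26.6% called higher. XIAP (0.75) and BIRC2 (0.58), which encode caspase-restraining IAP proteins, rose together with HTRA2 (0.40), whose product antagonises them. BIRC5, which encodes survivin and peaks in dividing cells, fell (-0.87), as did CASP2 (-0.72) and CASP6 (-0.62). For CASP2 the fall was smaller against the Nap vehicle (-0.29, edgeR adjusted p = 0.0266). CASP2 was higher with the EtOH vehicle than in control (0.46, edgeR adjusted p = 5.9e-04).

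Of 21 other regulators and targets of p53, 9 rose and 6 fell, with a median of 0.10, where 53% of all genes tested were called. Against the Nap vehicle 10 of these genes were higher with P4 and 2 lower, with a median of 0.21. Most of the falls were thus called against the EtOH vehicle only. SESN2 (2.03), CDKN1A (1.44), which encodes the cell cycle inhibitor p21, and GADD45A (3.42) rose, whereas TP53I3 (-1.36), TP53INP1 (-0.45) and BTG2 (-0.70) fell against the EtOH vehicle. The direction of BTG2 turned with the reference, since it was higher with P4 than with the Nap vehicle (0.48, edgeR adjusted p = 0.0326) and higher with the EtOH vehicle than in control (0.99, adjusted p = 8.0e-06), whereas TP53I3 and TP53INP1 were also lower against the Nap vehicle (-1.49 and -0.56). All 10 genes on the list of stress regulators, which holds both regulators and induced genes of the stress responses, rose. Their median was 1.61, where 26.6% of all genes tested were called higher. This list was chosen with earlier results of these data known and is no independent evidence. TRIB3, a pseudokinase induced by ATF4 and CHOP, was highest in change against the EtOH vehicle at 4.34 (17.98 ± 0.697 to 368 ± 47.4 CPM), and CEBPB (1.98) and XBP1 (1.33) rose too. DDIT3, which encodes CHOP, a known activator of TNFRSF10B, rose by 3.95, to 213 ± 50.7 from 13.5 ± 1.13 CPM (edgeR adjusted p = 1.4e-07). Against the Nap vehicle ATF3 changed most, by 6.79, followed by DDIT3 (4.96), JUN (4.87) and TRIB3 (4.20). The order within this list thus turned with the reference. In EtOH vehicle against control, 5 of these 10 genes were called, all higher, with a median of 0.36, where 11.9% of all genes tested were called higher. The changes of these 5 were uneven, at 4.08 for JUN, 3.03 for ATF3, 1.38 for PPP1R15A, 0.94 for DDIT3 and 0.56 for CHAC1. JUN was higher with P4 by 0.56 against the EtOH vehicle and by 4.87 against the Nap vehicle.

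**Figure D4:**
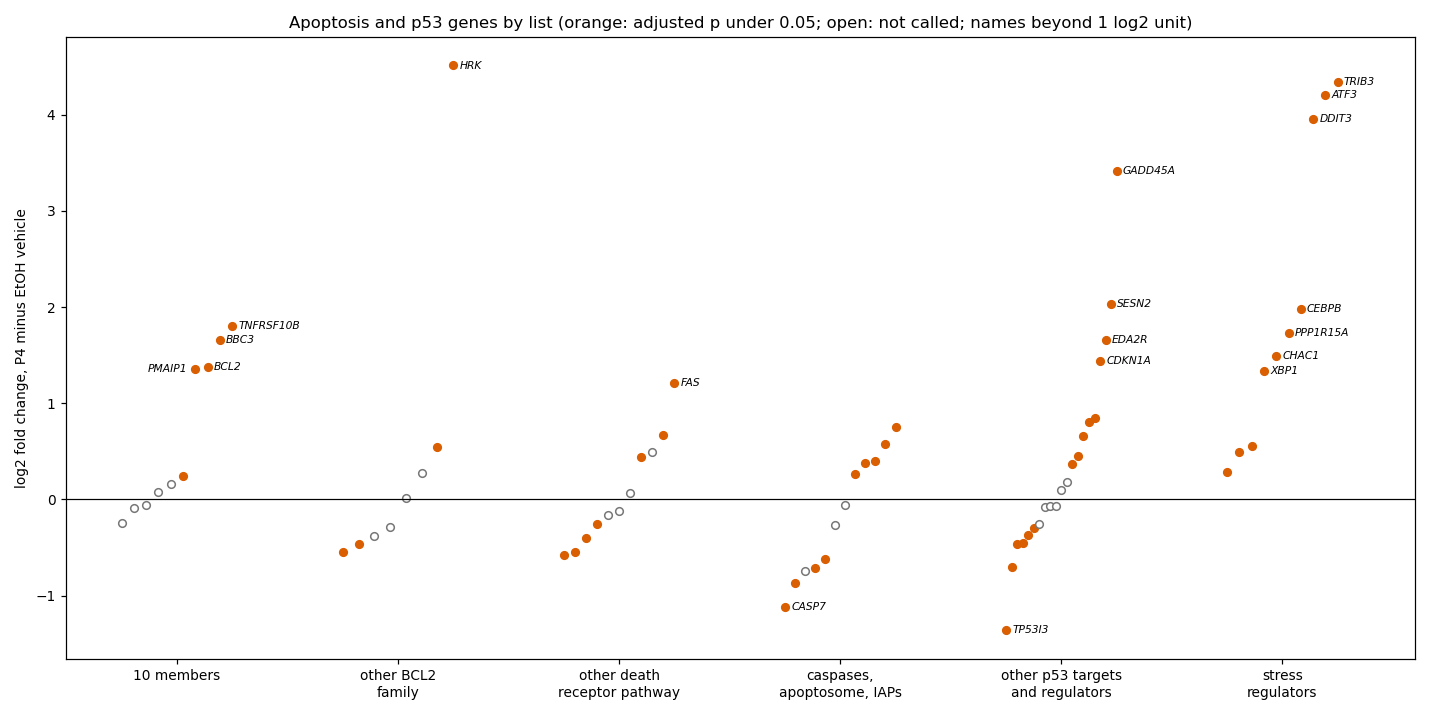
Log2 fold change of P4 minus EtOH vehicle for the 10 members and the 5 wider lists, 1 point a gene, orange where the edgeR adjusted p is under 0.05 and open where not called, with names beyond 1 log2 unit. The stress regulators lie above 0 without exception, from 0.28 to 4.34, whereas the other lists spread to both sides.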

How the data were processed

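The authors deposited raw counts per gene for 17 libraries (1 column each, 0 left unused). Per the study's methods, single-end reads of a stranded total RNA kit were mapped uniquely with Subread to GENCODE release 31 and counted with featureCounts; versions and the strand setting are not given in the sources used here. Of 60662 IDs, 58587 were named from GENCODE 29 (GRCh38), which also gave coordinates and exon lengths, and 2054 from a gene name table. Counts were tested with edgeR 4.0.16 in R 4.3.3 (robust quasi-likelihood, TMM, filterByExpr with a minimum count of 10, the 2 groups compared), with Benjamini-Hochberg adjustment over all genes tested. All 10 members passed this filter in every comparison. Alternatives were RLE and upper-quartile scaling, DESeq2 1.42.0, other count filters, 1 fit of all libraries, a replicate block and leaving out each replicate. Scripts were tested on simulated data. The members and gene lists were chosen with earlier results of these data known. Named genes are the members, the 3 with the smallest adjusted p per wider list and direction, and the 3 most like the 3 most variable members. BAK1, DDIT3, ATF3, JUN, PPP1R15A, CHAC1, TNFSF10 and FASLG were added after their values were seen. Of the wider lists, 2 genes are not reported here and were left out of the lists' counts.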

Additional observations from a re-analysis of the deposited data

Results flagged for a closer look

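For 3 members the difference between the PSAT1_P4 and PSAT1 columns was larger than that between P4 and the EtOH vehicle, by the test of the difference itself: MCL1 by 0.864, BCL2L11 by 0.675 and PMAIP1 by 0.645 on the log2 scale, with edgeR adjusted p of 1.6e-06, 0.00784 and 0.00666. In each, all 3 EtOH vehicle libraries were above all 3 PSAT1 column libraries. With the Nap vehicle as the reference 0 of 18232 genes were called by edgeR, and the 3 differences were 0.09, -0.01 and 0.23. The labels of both column sets contradict their column names, and no other result met a rule for a closer look.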

How the results depend on the processing

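Of the values recomputed under alternatives, 1556 kept their direction and their side of the threshold, or for counts stayed within 1.5 times. P4 against the EtOH vehicle gave 5 members called, and 8 with control and 9 with the Nap vehicle as the reference, where MCL1 turned to 0.71 and 0.70 and BCL2L11 to 0.45 and 0.58 on the log2 scale. By other settings, Nap vehicle against control gave 1 gene with DESeq2, 3 without a count filter, 1 in the fit of all 17 libraries and 42 with the replicate block, against 0. PSAT1 columns against control gave 14 without a filter and 29 with the replicate block, and PSAT1_P4 columns against P4 gave 1 and 1, both against 0. EtOH against Nap vehicle gave 2130 genes with DESeq2 and 2310 in the fit of all libraries, against 4034. Leaving out 1 replicate in turn moved genes called to 0 to 5 (Nap vehicle against control), 0 to 5 (PSAT1 columns against control), 0 to 1 (PSAT1_P4 columns against P4), 1908 to 3995 (EtOH vehicle against control, lowest without EtOH vehicle replicate 3, and 2038 without replicate 2) and 2355 to 3803 (EtOH against Nap vehicle, 2355 without replicate 2 and 2471 without replicate 3). Members called ranged over 5 to 6 (P4 against EtOH vehicle), 2 to 5 (EtOH vehicle against control), 2 to 4 (EtOH against Nap vehicle) and 7 to 8 (between the column sets). The causes were not tested, beyond the loss of a sample. Upper-quartile scaling shifted the median of all genes to -0.10 (P4 against EtOH vehicle) and -0.12 (between the column sets), and turned no called member. Same-numbered samples had correlated deviations of -0.0414 to 0.0526 for P4 and the EtOH vehicle, and in no comparison with 3 pairs were all pairs above 0.1, the highest single pair being 0.397 (PSAT1_P4 columns and P4, lowest -0.0492). The 2 pairs of Nap vehicle and control were at 0.308 and 0.35, too few to call them paired. The numbers were therefore not taken as pairs, and the replicate block left 5 members called for P4 against EtOH vehicle and 8934 genes against 8774. TNFRSF10A between the PSAT1 columns and P4 lost its call with the block (0.31, edgeR adjusted p = 0.0567). Depth limited BBC3 most, at 9 to 96 reads per library.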
